A study of Homo sapiens with 16 samples.

Results

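The genes described here copy DNA and supply its building blocks: the replicative helicase, the licensing factors, the polymerases and their clamp, the enzymes of deoxynucleotide synthesis, and the factors that rebuild chromatin and open S phase. A list of 42 gene symbols was matched to the symbols of the array's probe table, older symbols included. Probes were present for 41 genes out of 15240 symbols on the array, 47 probes of 30968 in all. PRIM1, a primase subunit, had no probe of that symbol and was not analysed here. Of these genes, 35 with 40 probes had a deposited value above 0 in all 16 samples and were tested.

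Samples came from HepG2, a line from a human liver tumour that keeps many hepatocyte functions, on 1-colour arrays labelled with Cy5. Cells received elaidic acid, oleic acid or stearic acid, each at 100 µM, or no fatty acid, and all 4 groups were held without serum for 7 days. Elaidic acid is the trans form and oleic acid the cis form of the same unsaturated fatty acid, and stearic acid is the saturated acid of the same chain length. Each group held 4 biological replicates of the 1 cell line, and the labels name 2 technical replicates of each RNA.

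By the array numbers in their labels, the slides belong to 2 number ranges, named slide series A and B here. Series B held elaidic acid replicates 1 and 3 and all stearic acid samples, and series A held elaidic acid replicates 2 and 4, all oleic acid samples and all controls. Median deposited intensity ran between 20 and 76.1 over the 16 samples. Hepatocyte markers ranged widely in deposited units. They reached 7100 to 65600 for 1 probe of the apolipoprotein APOA1 and 902 to 32400 for AFP, the fetal albumin relative made by many liver tumours. TF read 76 to 5680, and the FGG probe PH_hs_0031320 had a median of 5.27, with 3 samples at or below 0. Of the markers of other cell types, the leukocyte gene PTPRC stayed between 14.5 and 33.6, whereas CD14 reached 1860, CDH5 774 and COL1A1 390. The mean log2 level of that list was 5.39 to 6.19 in elaidic acid samples, 6 to 6.57 with oleic acid, 5.73 to 5.99 with stearic acid and 5.89 to 6.39 in control.

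Replication starts at origins, where the origin recognition complex, CDC6 and CDT1 load the MCM ring in G1 phase. CDC45 and the GINS complex then turn that ring into the active helicase, and polymerases held on the PCNA clamp copy both strands. Ribonucleotide reductase, thymidine kinase and thymidylate synthase provide the deoxynucleotides, and E2F factors with cyclin E switch many of these genes on at the start of S phase.

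With elaidic acid a probe of 5 members rose over control, those of RRM2, TK1, FEN1, GINS2 and CDC45L, by between 2.16-fold and 8.12-fold. The 8.12-fold rise was that of the dimmer of 2 conflicting GINS2 probes, and a second TK1 probe did not rise. Called here means a limma adjusted p under 0.05 over all probes tested. The 5 called probes, all higher, are among 40 member probes, 12.5%, while 0.323% of all 22939 probes tested were called in this comparison, 0.305% higher. The members were chosen with earlier results of these data known, so these shares describe the list and do not test it. An unadjusted p under 0.05 was reached by 18 member probes and by 14.3% of all probes. The elaidic acid and control values of 14 member probes did not overlap, 11 higher and 3 lower, against 6.5% of all probes. With the slide series as a block, which for this comparison is elaidic acid replicates 2 and 4 against the 4 controls, RRM2 alone was called, beside 0.0392% of all probes. Over the 35 genes, with the brightest probe of each, 22 were higher and 13 lower with elaidic acid, and 43.5% of all probes were higher. GINS2 entered these counts and the medians that follow by its brighter probe, which was lower. The median log2 change was 0.52 over the genes and -0.10 over all probes, and with the block 0.23 over the genes and 0.02 over all probes. In these bulk samples a larger share of cells in S phase and more RNA per cell cannot be told apart.

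RRM2 is the small subunit of ribonucleotide reductase, the part whose supply follows the cell cycle. Its normalised intensity was 1580, 1670, 1570 and 1640 in the elaidic acid samples, against 499, 304, 540 and 386 in control. The 4 elaidic acid values lay within a narrow band, far above every control and alike in both slide series. The log2 change was 1.94 ± 0.23 (SE, n = 4 each, limma adjusted p = 0.00251), a 3.83-fold rise, and with the block it was 1.97 ± 0.28 (limma adjusted p = 0.0334).

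TK1, the cytosolic thymidine kinase that salvages thymidine for DNA, gave 3510, 5100, 3580 and 3830 with elaidic acid, against 1040, 867, 1860 and 792 in control. The groups did not overlap, and control replicate 3 stood above the other controls. The log2 change was 1.88 ± 0.30 (limma adjusted p = 0.0125), and with the block it was 2.04 ± 0.36, no longer called (limma adjusted p = 0.0665). These are values of probe PH_hs_0022775. The second TK1 probe, PH_hs_0035630, read 27.5, 41.9, 36.8 and 25.3 with elaidic acid, against 74.6, 27.8, 38.7 and 27.8 in control, overlapping groups, with a log2 change of -0.26 ± 0.43.

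FEN1 cuts the RNA-primed flaps of lagging strand fragments. It read 233, 186, 220 and 223 with elaidic acid, against 83.2, 60.4, 91.9 and 52.6 in control. Every elaidic acid value exceeded the highest control by a wide margin in both series, at a log2 change of 1.61 ± 0.29 (limma adjusted p = 0.0245) and 1.54 ± 0.35 with the block (limma adjusted p = 0.175).

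GINS2 is a subunit of the GINS complex in the active helicase. Its probe PH_hs_0020095 read 299, 138, 230 and 124 with elaidic acid, against 12.9, 13.1, 75.9 and 21.1 in control. No elaidic acid value reached down to the controls, although control replicate 3 was well above the others. The log2 change was 3.02 ± 0.50 (limma adjusted p = 0.0168) and 2.52 ± 0.59 with the block (limma adjusted p = 0.188). The second GINS2 probe, PH_hs_0035960, did not share this and read 193, 262, 154 and 215 with elaidic acid, against 231, 193, 305 and 307 in control, a log2 change of -0.33 ± 0.26. The 2 probes therefore conflict, and the files do not give the transcripts they read.

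CDC45L, now called CDC45, joins MCM and GINS in the helicase. It read 78.6, 49.4, 45.8 and 56.4 with elaidic acid, against 22.2, 27.3, 29.9 and 25.6 in control. The groups did not overlap, at a log2 change of 1.11 ± 0.22 (limma adjusted p = 0.0426) and 1.02 ± 0.26 with the block (limma adjusted p = 0.269). The CDC45L call was lost without any 1 of the 8 elaidic acid and control samples, with limma adjusted p between 0.0585 and 0.169. Without control replicate 1 or 2, or without elaidic acid replicate 1 or 3, only RRM2 and TK1 stayed called, so that the count fell to 2. Without control replicate 4 the count was 3.

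The promoters of these 5 genes are printed because a probe of each was called for elaidic acid over control. Each line gives 250 bases upstream of a transcript start on the gene's strand in RefSeq's GRCh38.p14, with E2F octamers and CCAAT boxes in capitals. RRM2 and TK1 had 2 such windows each and CDC45L 3. For these genes the window with the most octamers and CCAAT boxes was picked, so its count is a maximum.
RRM2 promoter, chr2:10122489-10122738, plus strand: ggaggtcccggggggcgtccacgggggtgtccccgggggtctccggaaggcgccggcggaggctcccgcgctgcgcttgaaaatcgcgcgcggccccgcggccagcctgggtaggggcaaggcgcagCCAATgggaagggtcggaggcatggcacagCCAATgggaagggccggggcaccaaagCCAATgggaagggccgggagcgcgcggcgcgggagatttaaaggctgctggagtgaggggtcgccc
TK1 promoter, chr17:78187053-78187302, minus strand: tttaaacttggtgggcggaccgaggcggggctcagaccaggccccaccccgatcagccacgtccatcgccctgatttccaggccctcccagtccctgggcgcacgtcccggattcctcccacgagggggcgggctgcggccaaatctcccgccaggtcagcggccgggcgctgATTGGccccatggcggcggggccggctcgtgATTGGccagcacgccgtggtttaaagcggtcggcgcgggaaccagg
FEN1 promoter, chr11:61792661-61792910, plus strand: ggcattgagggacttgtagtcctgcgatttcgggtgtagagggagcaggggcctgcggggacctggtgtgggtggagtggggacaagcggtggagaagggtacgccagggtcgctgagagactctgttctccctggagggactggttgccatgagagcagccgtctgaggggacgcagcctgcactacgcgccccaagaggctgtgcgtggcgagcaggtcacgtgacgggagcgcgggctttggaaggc
GINS2 promoter, chr16:85688955-85689204, minus strand: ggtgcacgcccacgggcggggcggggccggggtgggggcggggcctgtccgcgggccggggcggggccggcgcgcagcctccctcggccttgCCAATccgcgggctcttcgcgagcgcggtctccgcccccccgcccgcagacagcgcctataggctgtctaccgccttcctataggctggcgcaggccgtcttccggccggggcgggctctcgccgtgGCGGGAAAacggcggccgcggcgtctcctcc
CDC45L promoter, chr22:19479670-19479919, plus strand: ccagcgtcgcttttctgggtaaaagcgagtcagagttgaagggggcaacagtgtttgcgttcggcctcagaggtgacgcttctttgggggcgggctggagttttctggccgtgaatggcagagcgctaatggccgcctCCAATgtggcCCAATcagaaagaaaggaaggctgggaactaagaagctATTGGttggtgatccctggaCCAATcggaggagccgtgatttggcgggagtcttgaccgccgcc
The octamers searched were TTTCCCGC, TTTCGCGC, TTTGCCGC and TTTGGCGC on either strand, and the CCAAT box and the CHR element TTTGAA on either strand, of which the CHR element is not marked. No octamer overlapped a CCAAT box in a member window. In the printed windows RRM2 held 3 CCAAT boxes, CDC45L 4 and TK1 2, while GINS2 held 1 with 1 octamer 31 bases before its start. FEN1 held neither, which says only that these letters are not in that window. RefSeq windows were matched for 36 of the 42 listed genes. An octamer stood in a window of 14 of them, 38.9%, and of 4.6% of 15843 protein-coding genes, and a CCAAT box in 58.3% and 40.2%. The CHR element stood in windows of 2 members, 5.56%, and of 14.2% of those genes. Among tested genes, the median log2 change with elaidic acid over control was 0.52 for the 13 with an octamer and 0.78 for the 18 without, and with the block 0.23 and 0.27.

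**Figure D1:**
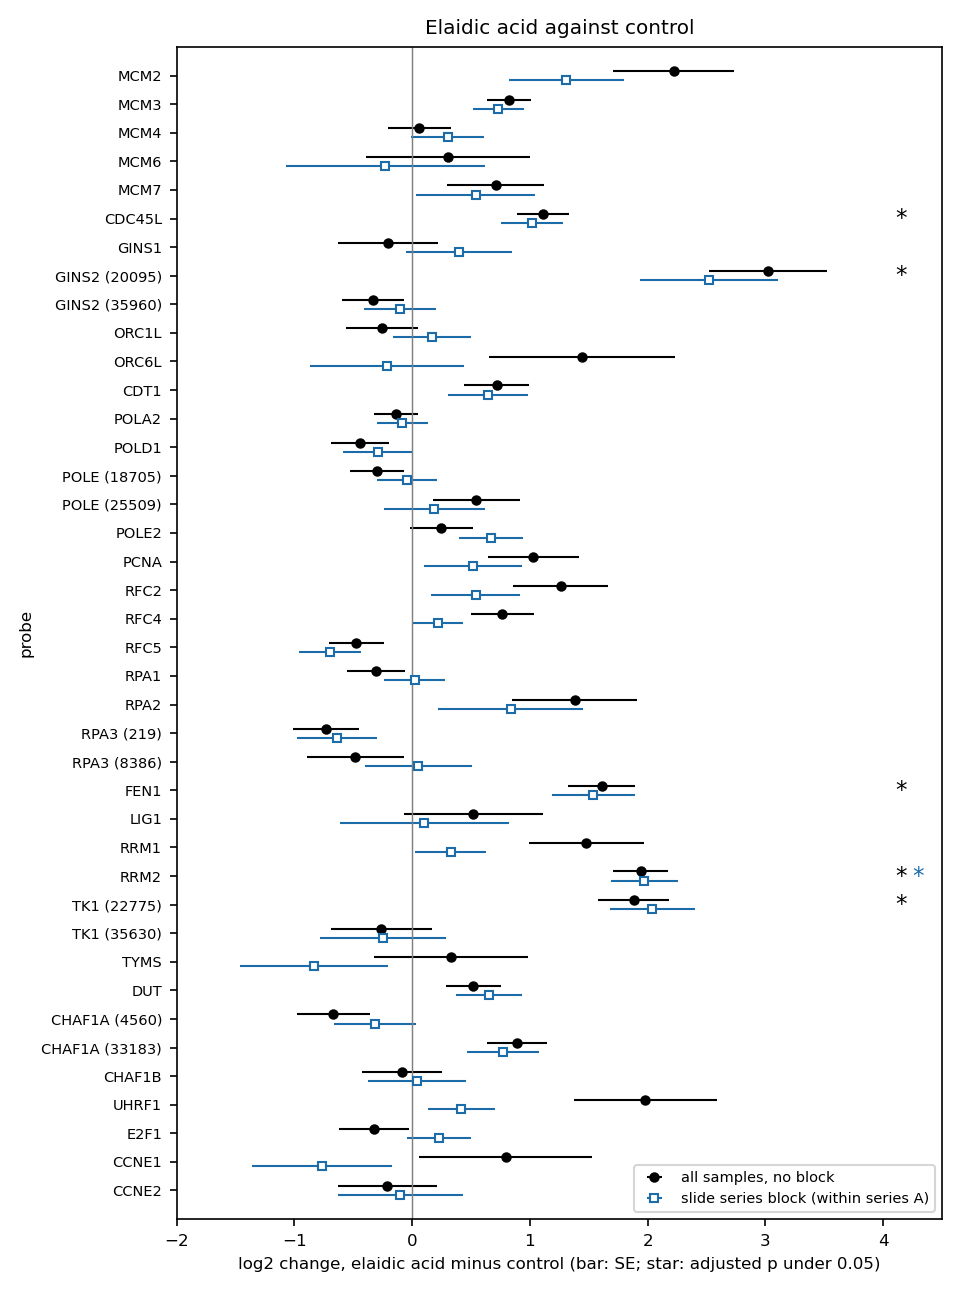
Log2 change of each member probe with elaidic acid over control, without the slide series block (filled circles) and with it (open squares). Bars are standard errors and stars mark a limma adjusted p under 0.05. RRM2, the TK1 probe PH_hs_0022775, FEN1, the GINS2 probe PH_hs_0020095 and CDC45L lie to the right of 0 in both fits, and the other TK1 and GINS2 probes to the left.

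Further helicase subunits were higher without passing the test. MCM2 read 106, 25.5, 62.1 and 20.8 with elaidic acid, against 15.9, 8.91, 8.08 and 6.50 in control. The groups did not overlap, but replicates 1 and 3 of elaidic acid were several times replicates 2 and 4. Its log2 change was 2.22 ± 0.51 (limma adjusted p = 0.0846) and 1.31 ± 0.49 with the block. MCM3 read 453, 395, 479 and 426 with elaidic acid, against 226, 256, 278 and 231 in control. Here the series were alike, at a log2 change of 0.82 ± 0.19 (limma adjusted p = 0.0838) and 0.73 ± 0.22 with the block. MCM4, MCM6 and MCM7, the remaining tested ring subunits, changed by 0.06, 0.30 and 0.71, and GINS1 by -0.21, all uncalled. MCM5, MCM10, GINS3, GINS4 and a second CDC45L probe had deposited values at or below 0 in 12, 2, 9, 1 and 2 samples and were left out of the test.

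No licensing member was called. CDT1, the MCM loading factor, read 832, 710, 648 and 615 with elaidic acid, against 304, 336, 507 and 619 in control. The highest control lay within the elaidic acid range, and the log2 change was 0.72 ± 0.28 (limma adjusted p = 0.269). ORC6L, a subunit of the origin recognition complex now called ORC6, read 75.6, 3.64, 41.0 and 8.78 with elaidic acid, against 5.46, 6.64, 7.04 and 7.22 in control. Only replicates 1 and 3, those of series B, were high, and the log2 change of 1.44 ± 0.79 was -0.21 with the block. ORC1L, the largest origin recognition subunit, changed by -0.26 and CDC6 was left out, with values at or below 0 in 11 samples.

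No polymerase probe was called over control. POLD1, the catalytic subunit of polymerase delta, read 1340, 1940, 1580 and 1670 with elaidic acid, against 2640, 2300, 2090 and 1850 in control, a log2 change of -0.44 ± 0.25. The groups overlapped by 1 value on each side. POLE, the catalytic subunit of the leading strand polymerase, has 2 probes, of which PH_hs_0018705 read 2010, 3100, 1990 and 2630 with elaidic acid, against 2790, 2450, 2800 and 3880 in control. It changed by -0.30 and PH_hs_0025509 by 0.54, with overlapping groups on both and neither called. POLA2, a polymerase alpha subunit, changed by -0.14 and POLE2, the accessory subunit of polymerase epsilon, by 0.25.

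For the clamp, PCNA read 1440, 589, 1270 and 751 with elaidic acid, against 229, 696, 363 and 802 in control. Its replicates 1 and 3 were above every control while 2 and 4 fell among them, at a log2 change of 1.03 ± 0.38 and 0.52 ± 0.42 with the block. The clamp loader subunit RFC2 stood at log2 levels of 7.36, 5.82, 6.90 and 5.54 with elaidic acid, against 4.43, 5.76, 4.80 and 5.56 in control. RFC4, another loader subunit, had normalised intensities of 328, 139, 258 and 133 with elaidic acid, against 97.0, 128, 132 and 114 in control. Both were again highest in replicates 1 and 3. Their log2 changes were 1.26 ± 0.40 and 0.77 ± 0.27, and 0.54 ± 0.38 and 0.22 ± 0.22 with the block, none called. RFC5, a further subunit, changed by -0.47 and RFC3 was left out with 1 value at or below 0. 

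The 3 RPA proteins coat single-stranded DNA as 1 complex, and their probes did not move as 1. RPA2 read 368, 134, 304 and 183 with elaidic acid, against 52.7, 128, 79.2 and 111 in control. RPA1 read 439, 601, 406 and 736 with elaidic acid, against 854, 531, 757 and 539 in control. The RPA3 probe PH_hs_0000219 read 28.9, 42.2, 46.1 and 40.6 with elaidic acid, against 86.0, 52.4, 78.1 and 49.1 in control. RPA2 was thus above and this RPA3 probe below all controls, while the RPA1 groups overlapped. The log2 changes were 1.38 ± 0.53 for RPA2, -0.31 ± 0.25 for RPA1 and -0.73 ± 0.28 for this RPA3 probe, and -0.48 ± 0.41 for the second RPA3 probe, PH_hs_0008386, all uncalled. LIG1, the ligase that seals lagging strand fragments, changed by 0.52 ± 0.59.

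The other nucleotide genes split. RRM1, the large subunit of ribonucleotide reductase, read 434, 106, 379 and 63.0 with elaidic acid, against 45.1, 58.9, 72.6 and 92.9 in control. RRM1 was thus high in elaidic acid replicates 1 and 3, and replicate 4 fell among the controls, unlike RRM2. The log2 change of RRM1 was 1.48 ± 0.49 and 0.33 ± 0.31 with the block. DUT, the dUTPase that keeps uracil out of DNA, changed by 0.52 ± 0.23. TYMS, which makes thymidylate, was dim, at 28.3, 9.34, 27.6 and 3.32 with elaidic acid and 8.23, 15, 3.40 and 23.1 in control. Its log2 change was 0.33 ± 0.65, and -0.83 ± 0.63 with the block.

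Among the chromatin factors, UHRF1, which guides maintenance DNA methylation, read 489, 46.1, 306 and 43.2 with elaidic acid, against 27.9, 26.9, 39.1 and 42.5 in control. Replicates 2 and 4 stood only just above the highest control. The log2 change was 1.98 ± 0.61, and 0.42 ± 0.28 with the block. CHAF1A, the large subunit of chromatin assembly factor 1, has 2 conflicting probes. PH_hs_0004560 read 402, 631, 363 and 623 with elaidic acid, against 822, 643, 676 and 1040 in control. PH_hs_0033183 read 534, 533, 640 and 456 with elaidic acid, against 246, 313, 323 and 282 in control. The groups parted on both probes, in opposite directions, with log2 changes of -0.67 ± 0.31 for PH_hs_0004560 and 0.89 ± 0.25 for PH_hs_0033183. Neither was called, and CHAF1B, its partner subunit, changed by -0.09.

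For entry into S phase, CCNE1, a cyclin E, read 151, 24.0, 69.9 and 5.81 with elaidic acid, against 23.6, 38.3, 9.34 and 19.2 in control. The lowest elaidic acid value lay under every control, and the log2 change of 0.80 ± 0.73 was -0.76 ± 0.59 with the block. E2F1, the transcription factor that activates many of these genes, read 672, 1720, 751 and 1350 with elaidic acid, against 1840, 934, 1270 and 1310 in control. Replicates 1 and 3 of elaidic acid lay under all controls. E2F1 changed by -0.32 ± 0.30, and CCNE2, the second cyclin E, by -0.21.

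**Figure D2:**
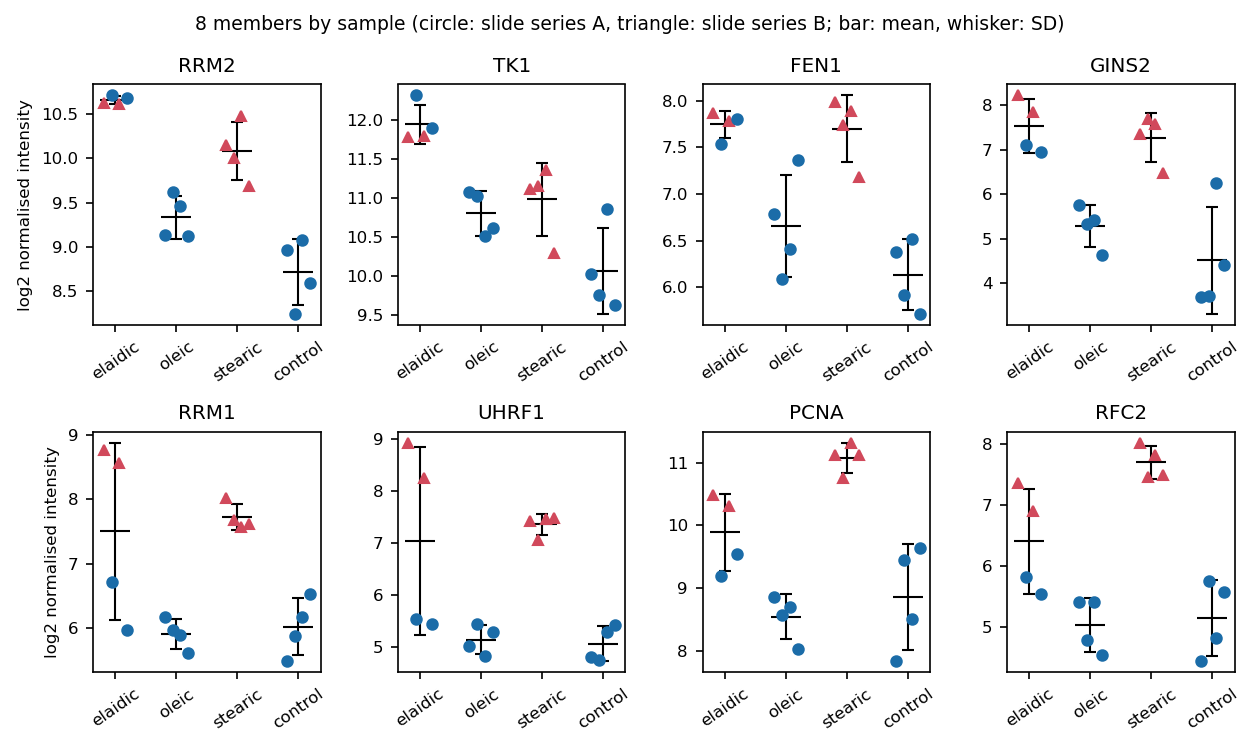
Log2 normalised intensity of 8 members in each sample by group, with circles for slide series A, triangles for series B, and the group mean and SD as bar and whisker. RRM2, TK1 and FEN1 were alike in both series of the elaidic acid group, while RRM1 and UHRF1 were high in series B.

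The split between replicates was measured directly within the elaidic acid group, 2 samples of series B against 2 of series A. RRM1 differed by 2.31 ± 0.35 on the log2 scale, UHRF1 by 3.12 ± 0.33, CCNE1 by 3.12 ± 0.69, ORC6L by 3.30 ± 0.76 and RFC4 by 1.10 ± 0.25. These 5 probes of 40 were called, all higher in series B, where 2.36% of all probes were called higher. A difference of at least 1 in favour of series B was found for 12 member probes and 16% of all probes, among the members PCNA at 1.03, RFC2 at 1.45, MCM2 at 1.82 and TYMS at 2.33. Among the probes called over control, RRM2 differed by -0.07 ± 0.33, TK1 by -0.32 ± 0.42, FEN1 by 0.15 ± 0.41, CDC45L by 0.18 ± 0.30 and GINS2 by 1.00 ± 0.68, none called between the series. At least 1 lower in series B were 3 member probes, GINS1 at -1.21 ± 0.52, E2F1 at -1.1 ± 0.31 and the RPA3 probe PH_hs_0008386 at -1.07 ± 0.53, none called. The common reference genes moved with the series as well: their mean log2 level was 7.89 and 7.95 in the elaidic acid samples of series B and 6.57 and 6.62 in those of series A. Their part in the members' values was not tested.

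**Figure D3:**
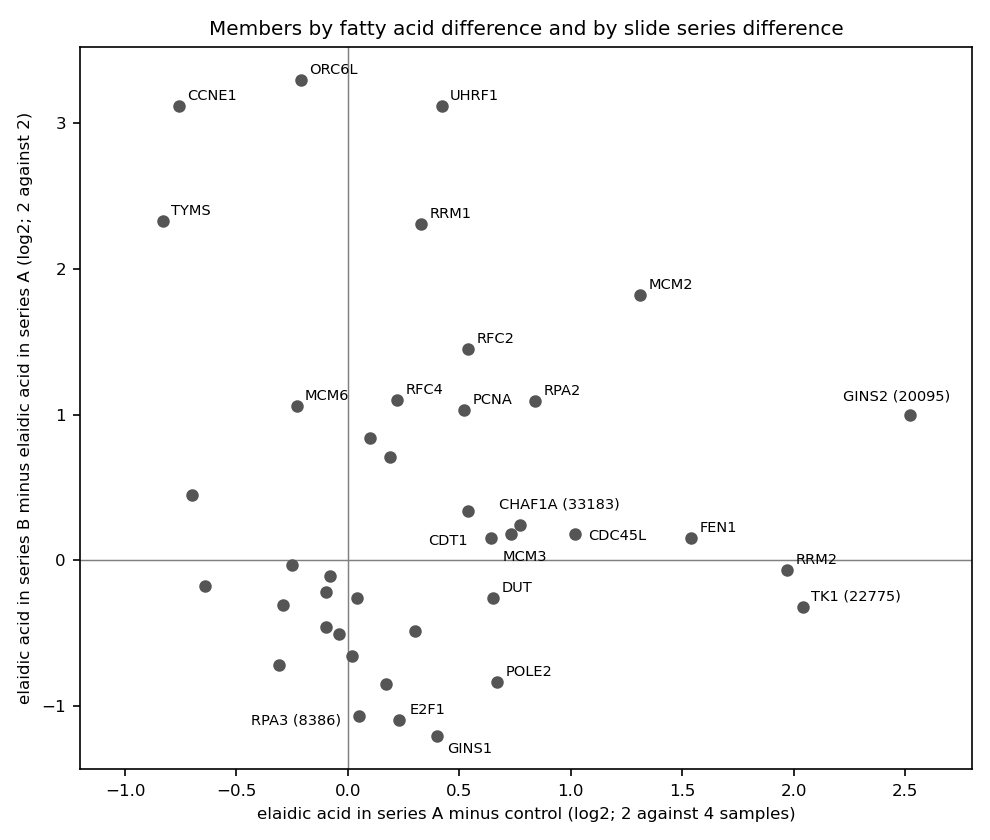
Each member probe by its log2 difference between elaidic acid in series A and control (horizontal) and between the elaidic acid samples of series B and A (vertical). RRM2, the TK1 probe PH_hs_0022775, FEN1 and CDC45L lie to the right and close to 0 on the vertical axis, and UHRF1, CCNE1 and ORC6L lie above 3 on it.

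Taking series A alone, both elaidic acid samples exceeded all 4 controls for 12 of the 40 member probes, against 7.17% of all probes. Those were MCM2, MCM3, CDC45L, the GINS2 probe PH_hs_0020095, POLE2, RFC4, RPA2, FEN1, RRM2, the TK1 probe PH_hs_0022775, the CHAF1A probe PH_hs_0033183 and UHRF1. POLE2 read 319, 538, 315 and 603 with elaidic acid, against 408, 319, 472 and 267 in control, so that its series A samples were the high ones.

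The comparison of the trans with the cis acid asks what the shape of the double bond does at matched dose and time. RRM2 was called higher with elaidic acid than with oleic acid, which gave 563, 786, 706 and 558. The log2 difference was 1.32 ± 0.23 with a 95% interval of 0.83 to 1.82 (limma adjusted p = 0.0269), where 0.318% of all probes were called. It was not called with the block, at 1.36 ± 0.28 (limma adjusted p = 0.173), where 0.0218% of all probes were. Leaving out oleic acid replicate 1, 3 or 4, or elaidic acid replicate 1 or 3, ended the call as well, with differences from 1.25 to 1.37. None of the other 39 member probes was called, and 17 of the 40 had an unadjusted p under 0.05, as did 18.9% of all probes. The difference was 1.14 (0.51 to 1.78) for TK1 (PH_hs_0022775) and 2.25 (1.19 to 3.32) for GINS2 (PH_hs_0020095). Their second probes went the other way. Mean log2 levels with elaidic and oleic acid were 5.009 and 5.222 for TK1 (PH_hs_0035630), and 7.66 and 7.92 for GINS2 (PH_hs_0035960). For FEN1 the difference was 1.09 (0.48 to 1.69), for CDC45L 0.89 (0.43 to 1.36) and for CDT1 1.09 (0.51 to 1.67). CDT1 read 268, 364, 462 and 255 with oleic acid, below all 4 elaidic acid values.

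Oleic acid against control called no member probe, as it called none of the 22939 probes. At an unadjusted p under 0.05 there were 3 member probes and 602 probes in all, 2.62%. RRM2 had a log2 change of 0.62 ± 0.23 (0.12 to 1.11). TK1 changed by 0.74 ± 0.30 (0.105 to 1.38) and the RPA3 probe PH_hs_0000219 by -0.97 ± 0.28. For FEN1 the interval was -0.08 to 1.13 and for CDC45L -0.25 to 0.69, intervals that hold 0 and rises of up to their upper bounds. The median over the 35 genes was 0.07.

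The remaining values with oleic acid were as follows. In the helicase, oleic acid gave 5.54, 24.5, 8.48 and 7.31 for MCM2 and 328, 385, 310 and 257 for MCM3. It gave 53.9, 40.2, 42.5 and 25.0 for GINS2 (PH_hs_0020095) and 35.1, 33.4, 31.0 and 23.3 for CDC45L. The oleic acid range overlapped the control range for each of these 4 probes. FEN1 read 110, 68.0, 85.1 and 164, and TK1 (PH_hs_0022775) 2160, 2100, 1460 and 1560, with oleic acid, below every elaidic acid sample. PCNA read 467, 381, 418 and 263 with oleic acid, RFC2 42.3, 27.5, 42.6 and 23.1, and RFC4 150, 151, 148 and 132. RRM1 read 72.3, 62.8, 59.6 and 49.2, UHRF1 32.2, 43.2, 28.3 and 39.0, CCNE1 13.4, 26.9, 12.8 and 22.2, and TYMS 3.51, 4.51, 5.18 and 8.68. These 7 probes were thus near or within the control range in all oleic acid samples. E2F1 read 1450, 1680, 1580 and 2130, POLD1 1800, 1290, 1810 and 2990, and POLE (PH_hs_0018705) 2580, 3440, 4010 and 3710. RPA1 read 719, 996, 942 and 980, RPA2 157, 137, 123 and 21.8, RPA3 (PH_hs_0000219) 24.7, 36.1, 53.2 and 25.0, and CHAF1A (PH_hs_0004560) 495, 551, 1200 and 865. Of these 7, the low value of RPA2 came from oleic acid replicate 4, 1 of the dimmest arrays.

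Stearic acid against control and oleic acid against stearic acid set series B wholly against series A, so the acid and the series cannot be told apart in them. With stearic acid, 14 member probes were called higher and 4 lower than control, 45% of the 40, where 29.8% of all probes were called, 15% higher and 14.8% lower. Among the brighter 50% of probes, 13 of 25 member probes were called and 55.7% of all, so the members did not exceed the array there. The blocked fit, which runs through the elaidic acid samples, called none of the 40, with 7 at an unadjusted p under 0.05, and none of all probes. PCNA read 2240, 1720, 2550 and 2220 with stearic acid, and RFC2 261, 177, 227 and 180. Both lay above every sample of the other 3 groups. Their log2 changes over control were 2.22 ± 0.38 and 2.56 ± 0.40 (limma adjusted p = 0.0019 and 0.0012), and 1.19 ± 0.59 and 1.11 ± 0.54 with the block.

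Further members were high in all 4 stearic acid samples. MCM2 read 40.5, 50.6, 49.1 and 39.5, and MCM3 438, 435, 542 and 448. CDC45L read 58.5, 58.1, 46.6 and 59.6, GINS2 (PH_hs_0020095) 163, 208, 192 and 88.4, and FEN1 252, 214, 237 and 145. RFC4 read 337, 279, 365 and 305, and RPA2 378, 267, 320 and 252. RRM1 read 260, 204, 191 and 197, UHRF1 172, 133, 177 and 178, and CCNE1 143, 85.2, 144 and 147. Every one of these values exceeded every control value of its probe. The comparison also sets series B against series A and called 29.8% of all probes, and the share of all probes so separated is not given here. Log2 changes over control ran from 0.91 for MCM3 to 2.76 for GINS2, all called, and none with the block. The RPA2 call, at 1.77 ± 0.53, was lost without any 1 of 4 of the 8 samples, with limma adjusted p between 0.054 and 0.0806. TYMS read 33.5, 15.9, 22.4 and 26.6 with stearic acid and was not called over control. For oleic acid against stearic acid its log2 change was -2.20 ± 0.65, called, but not without stearic acid replicate 1, at -2.03, nor with the block, at 0.13. TK1 (PH_hs_0022775) was called over control at 0.92 ± 0.30, and that call was lost without any 1 of 6 of the 8 samples. The second probes of TK1 and GINS2 went the other way, uncalled. Mean log2 levels with stearic acid and in control were 4.822 and 5.273 for TK1 (PH_hs_0035630), and 7.566 and 7.991 for GINS2 (PH_hs_0035960).

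The members called lower with stearic acid were POLD1, POLE (PH_hs_0018705), RPA3 (PH_hs_0000219) and CHAF1A (PH_hs_0004560), with log2 changes of -1.05, -0.63, -1.04 and -1.06. POLD1 read 893, 1240, 1140 and 1010 with stearic acid, under every control. POLE read 1870, 2250, 1580 and 1930, RPA3 27.7, 34.6, 34.1 and 29.5, and CHAF1A 288, 484, 331 and 429, on these probes, with stearic acid. All 3 lay below every control too. Here as well series B is set against series A, and the share of all probes so separated is not given. The second probes of POLE and CHAF1A went the other way, uncalled. Mean log2 levels with stearic acid and in control were 8.334 and 7.543 for POLE (PH_hs_0025509), and 8.612 and 8.176 for CHAF1A (PH_hs_0033183). For RPA3 (PH_hs_0008386) they were 6.112 and 6.89, lower as well and uncalled. The POLE call was lost without any 1 of 7 of the 8 stearic acid and control samples, at log2 changes between -0.71 and -0.50, and that of CHAF1A without control replicate 1, at -1.04, or stearic acid replicate 1 or 3, at -0.92 and -0.99. CCNE1 was called at 2.66 ± 0.73, and RRM1 and UHRF1 at 1.70 ± 0.49 and 2.30 ± 0.61, and all 3 turned to the other sign with the block, at -0.46, -0.61 and -0.82. CCNE1 was not called without control replicate 3, at 2.29, nor RRM1 without control replicate 1 or stearic acid replicate 1, at 1.5 and 1.60. Oleic acid against stearic acid called 5 member probes higher and 14 lower, beside 39.5% of all probes, 21% higher and 18.4% lower, and none with the block. Without stearic acid replicate 1 the count was 12 in place of 19. Among the brighter 50% of probes, 15 of 25 member probes were called and 63.6% of all. E2F1, at 786, 848, 766 and 670 with stearic acid, was 1.15 ± 0.30 higher with oleic acid, and 0.05 ± 0.38 with the block. RPA1, at 423, 563, 587 and 533 with stearic acid, was 0.79 ± 0.25 higher with oleic acid, and 0.13 ± 0.37 with the block, a call also lost without oleic acid replicate 2 or 4 or stearic acid replicate 1. CDT1, at 489, 552, 420 and 336 with stearic acid, was not called, at -0.43 ± 0.28.

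Against stearic acid, elaidic acid called no member probe, beside 0.397% of all probes, and none with the block, beside 0.00436%. At an unadjusted p under 0.05 there were 8 member probes and 14.5% of all probes. RRM2 read 1130, 1030, 1430 and 823 with stearic acid, below every elaidic acid value, a log2 difference of 0.58 ± 0.23 (0.08 to 1.07). These stearic acid values lay above every control, at a log2 change over control of 1.36 ± 0.23 (limma adjusted p = 0.00178), called, and 1.44 ± 0.40 with the block, not called (limma adjusted p = 0.396). TK1 read 2220, 2290, 2630 and 1260 with stearic acid, also below, a difference of 0.97 ± 0.30 (0.33 to 1.60). FEN1 differed by 0.05 (-0.56 to 0.66) and CDC45L by 0.02 (-0.45 to 0.49), which does not show that the acids act alike. Within series B, elaidic acid replicates 1 and 3 exceeded stearic acid for UHRF1 by 1.24 ± 0.28 and for RRM1 by 0.94 ± 0.31, uncalled.

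**Figure D4:**
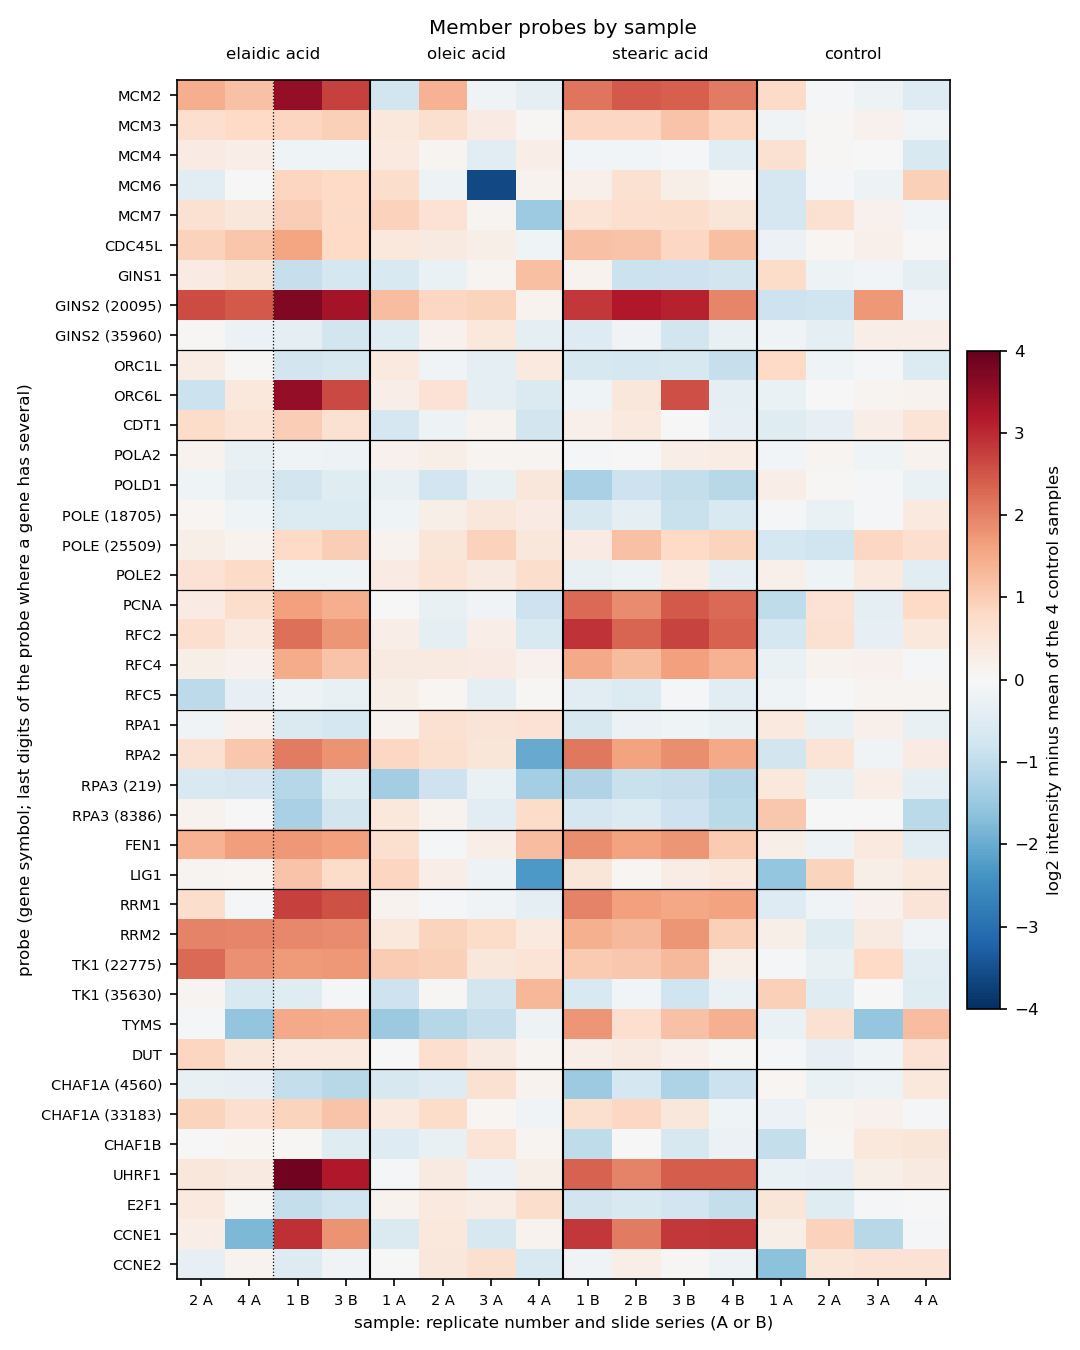
Normalised log2 level of each tested member probe (down) in each sample (across, by group and slide series), as a colour for its difference from the mean of the 4 control samples. The elaidic acid and stearic acid samples of series B share high values of UHRF1, RRM1 and RFC2.

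Other genes of the same pathways, 65 tested with 71 probes, were mostly higher with elaidic acid but none was called over control. Their median log2 change was 0.33, with 51 genes higher and 14 lower, and 0.18 with the block. Chosen after their values were seen, CCNA2, the S phase cyclin, had a log2 change of 2.49 ± 0.54 and 1.45 ± 0.49 with the block. SKP2, which marks the inhibitor CDKN1B for decay, had 1.06 ± 0.22 and 1.02 ± 0.27, and DNMT1, the maintenance DNA methyltransferase, 1.32 ± 0.49 and 0.46 ± 0.47. At an unadjusted p under 0.05 there were 20 of the 71 probes, and 14.3% of all probes. With stearic acid over control, which also sets series B against series A, 29.8% of all probes were called, 15% higher and 14.8% lower. Of the 71 pathway probes, 23 were called higher there and 3 lower, and none with the block. The 1 of these probes called between elaidic and stearic acid was a CDK4 probe, for a G1 phase kinase, at -1.33 ± 0.22 (limma adjusted p = 0.0377) and -1.28 ± 0.27 with the block, not called (limma adjusted p = 0.333), while the other CDK4 probe was at -0.01 ± 0.23. Genes of mitosis, the phase after replication, had a larger median for elaidic acid over control, 1.30 over 22 genes. Of their 24 probes 8 were called, among them MKI67 and CCNB2, beside 0.323% of all probes. With the block their median was 1.24, and 2 probes were called, beside 0.0392% of all probes. Common reference genes had a median of 0.62 over 7 genes, and 0.07 with the block. Hepatocyte markers had a median of 0.86, with 10 of 10 genes higher and 1 of 14 probes called, and 0.43 with the block. Their mean log2 level was 12.57 and 12.68 in the elaidic acid samples of series B and 11.73 and 11.80 in those of series A, against 10.44 to 11.71 in control, and their part in the members' values was not tested.

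**Figure D5:**
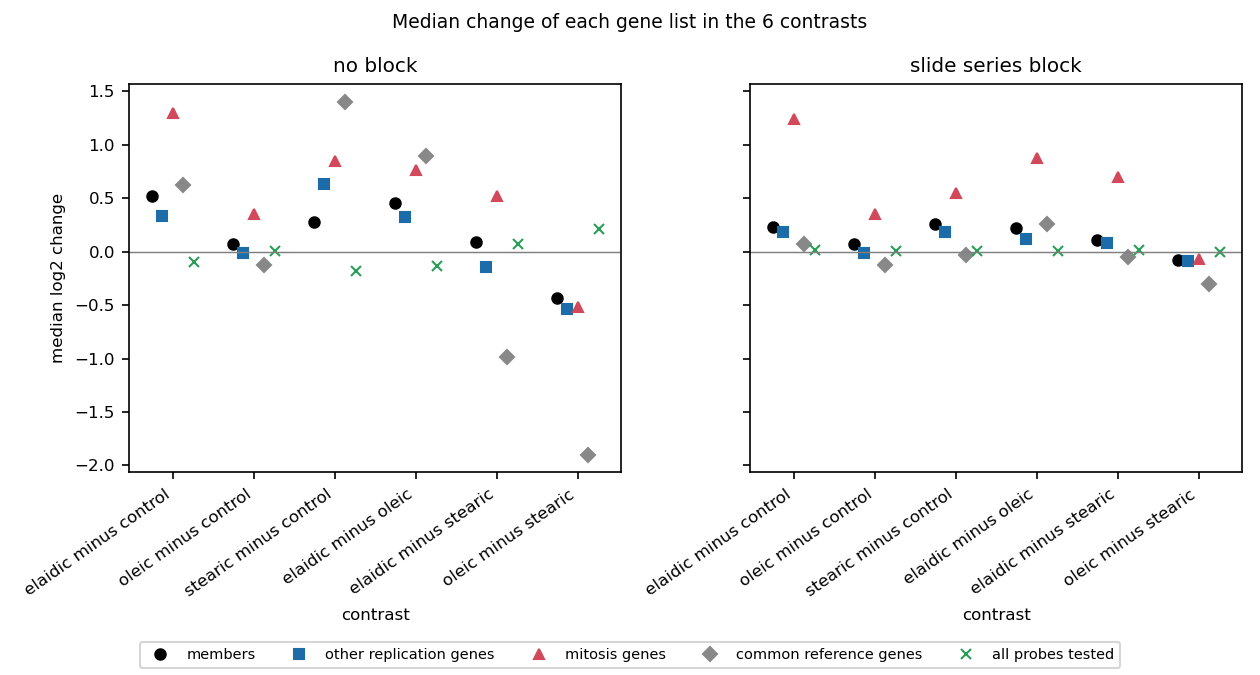
Median log2 change of members, other replication genes, mitosis genes, common reference genes and all probes in the 6 contrasts, without and with the slide series block. Members stood at 0.52 and mitosis genes at 1.30 for elaidic acid over control, and at 0.23 and 1.24 with the block.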

How the data were processed

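The labels describe total RNA, amplified and coupled to Cy5. As deposited, the values are linear intensity, 1 per probe and sample, with some below 0 in every sample. The background method and the merging of technical replicates are not given in the sources used here. A probe was kept where all 16 values exceeded 0, and 8029 were not. Kept probes were log2 transformed, quantile normalised and fitted in R 4.3.3 by lmFit and eBayes of limma 3.58.1 (all 16 samples, two-sided, Benjamini-Hochberg adjustment over 22939 probes). Intervals are limma's 95% intervals, normalised intensities are back-transformed, and the number of arrays limits precision. Figures used matplotlib 3.10.9.

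Slide series was fitted as a block, since it overlaps with group. Values in every sample were given for members called in any contrast, or, in a role with none, for the member of smallest p; members in other cases were chosen after their values were seen. A gene with several probes entered medians by its brightest probe. The members and lists were chosen with earlier results of these data known. On simulated data for elaidic acid against control, with 200 of 22939 probes changed, the fit recovered 13.3% of 2-fold and 64.0% of 4-fold changes with 5.21% false calls, and with the block 2.60%, 38.8% and 4.38%. The simulated noise had the spread of the fit without the block and held no difference between the slide series. Recovery and the rate of false calls where the series differ were therefore not tested, for either fit. Alternatives covered normalisation, dim probes, blocks, sample subsets, array weights, an intensity trend and each sample left out. 2 of them, without the dimmest arrays and on series A alone, were chosen after seeing the data.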

Additional observations from a re-analysis of the deposited data

Results flagged for a closer look

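In 6 of 88 groups of 4 samples tested over the named members, 1 sample lay far from the other 3, with a gap, as a share of the group's range, above Dixon's critical value. Chance flags about 1 in 20 such groups. CDC45L was low in stearic acid replicate 3, at 46.6 against 58.1 to 59.6 (gap share 0.891), and MCM3 was high in the same sample, at 542 against 435 to 448 (gap share 0.865). UHRF1 and CCNE1 were both low in stearic acid replicate 2, at 133 against 172 to 178 (gap share 0.884) and at 85.2 against 143 to 147 (gap share 0.958). RPA2 was low in oleic acid replicate 4, 1 of the dimmest arrays, at 21.8 against 123 to 157 (gap share 0.877). RPA1 was low in oleic acid replicate 1, at 719 against 942 to 996 (gap share 0.83). No cause was tested.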

How the results depend on the processing

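With slide series as a block the called member probes went to 1 of the 5 for elaidic acid over control, and to 0 for elaidic over oleic acid (1 without the block), stearic acid over control (18) and oleic over stearic acid (19). The median log2 change over the members moved to 0.23 for elaidic acid over control and -0.08 for oleic over stearic acid. Of the 40 member probes, 10 turned sign with the block for elaidic acid over control, where 32.5% of all probes did, 17 for stearic acid over control (38.2% of all) and 19 for oleic over stearic acid (33.2% of all). Among called changes, and, for elaidic acid over control, the members named by the rule given for values in every sample, signs turned for CCNE1 (elaidic over control -0.76, stearic over control -0.46, oleic over stearic 0.30), RRM1 (stearic over control -0.61, oleic over stearic 0.51), UHRF1 (-0.82 and 0.90), TYMS (elaidic over control -0.83, oleic over stearic 0.13), and, for elaidic acid over control, E2F1 (0.23) and RPA1 (0.02). On series A alone, elaidic acid over control gave 0 calls, a median of 0.22, and CCNE1 at -0.75, TYMS at -0.84, E2F1 at 0.22 and RPA1 at 0.02, and elaidic over oleic acid gave 0 calls.

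For elaidic acid over control, 0 member probes were called on the 2 groups alone (0% of all probes), 16 with array weights (20.3%) and 2 without the dimmest arrays (0.139%). For elaidic over oleic acid, 0 were called on the 2 groups alone (0%) or without the dimmest arrays (0.0971%), 2 with an offset of 50 (0.675%), with the brighter 50% of probes (1.57%) or with an intensity trend (0.527%), and 22 with array weights (39%). With the brighter 50% of probes the medians were 0.25 for elaidic acid over control, -0.03 over oleic acid, 0.06 for stearic acid over control and 0.07 for oleic over stearic acid. An offset of 50 gave 0.14 for stearic acid over control and -0.17 for oleic over stearic acid, array weights gave -0.19 for oleic over stearic acid, and without the dimmest arrays the medians were 0.20 for elaidic over oleic acid, 0.07 for stearic acid over control and -0.06 for oleic over stearic acid. Leaving out 1 sample at a time gave 2 to 6 calls and medians of 0.31 to 0.67 for elaidic acid over control, 0 to 3 and 0.20 to 0.65 over oleic acid, 13 to 18 and 0.08 to 0.48 for stearic acid over control, and 12 to 19 and -0.56 to -0.05 for oleic over stearic acid. Medians ran from 0.02 to 0.18 for elaidic over stearic acid and from -0.01 to 0.16 for oleic acid over control, with 0 calls in each. TYMS for elaidic acid over control ran from -0.18 to 0.97, turning to -0.18 without control replicate 3, and to -0.06 and -0.05 without elaidic acid replicates 1 and 3. The cause of these shifts was not tested. Replicate numbers did not pair the samples: over 24 same-numbered pairs the correlation of deviations ran from -0.462 to 0.364, with 7 over 0.1. A replicate block gave 3 calls for elaidic acid over control (0.122% of all probes) and 0 over oleic acid (0.0174%). Dim probes such as TYMS and ORC6L are limited by signal over background.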
